A study of Mus musculus with 9 samples.

Results

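Mitochondrial protein import and protein quality control were followed through 37 nuclear genes in D2.0R cells, a mouse mammary tumour line. The genes were taken by name (the TOM, TIM and SAM complexes, the import motor, the matrix peptidase and chaperones, and the mitochondrial proteases), not by a rule on their values. Earlier results of these data were known when the genes were chosen. Each of the 37 was found among the 23309 gene symbols in the files, and all 37 were among the 10497 genes tested. The cells were grown in 3D on basement membrane extract (BME), a laminin-rich gel on which the study keeps D2.0R cells dormant, or on BME + COL, the same gel with type I collagen, on which they proliferate. RNA was sequenced at day 1 and day 5 from cells on BME and at day 5 from cells on BME + COL, with 3 biological replicates (letters a to c) in each group. The labels name no drug in any group, D2.0R is 1 cell line, and cells on BME + COL at day 1 were not analysed here.

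Nearly all mitochondrial proteins are made in the cytosol and carried into the organelle. The TOM complex is the gate of the outer membrane, the small TIM proteins chaperone membrane proteins across the space behind it, and the TIM23 and TIM22 complexes take proteins through or into the inner membrane. A motor built around mitochondrial HSP70 pulls matrix proteins in, a peptidase removes their targeting signal, the HSP60 and HSP10 chaperonin folds them, the SAM complex builds barrel proteins into the outer membrane, and proteases of each compartment remove damaged or surplus protein.

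The coverage in the files summed to 7.21 to 9.37 gigabases over transcripts in a library, and the median half-width of the interval given for one of the 37 genes was 4.98% to 6.39% of its value. BME day 5 replicate b stood apart, with all genes at a median deviation of -0.27 on the log2 scale from the mean of the libraries and the 37 genes at -0.60, against -0.26 and -0.29 for these genes in replicates a and c. In BME day 5 replicate a, genes shorter than 300 bases took 7.25% of the FPKM, against 0.440% to 2.12% in the other 8 libraries.

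In BME day 5 cultures the import genes were lower than on BME + COL at the same day. Of the 37 genes, 33 were lower, 1 was higher and 3 did not pass the test (limma, Benjamini-Hochberg adjusted p under 0.05), where 45.3% of all tested genes were lower and 30.3% higher. The median log2 change of the 37 was -0.85, against -0.18 for all tested genes, and single genes ran from -1.89 (Grpel1) to 0.39 (Spg7). Every BME day 5 library lay below every BME + COL library for 34 of the 37 genes, while 48.1% of all genes were ordered in this way. Together the 37 genes took 0.392% to 0.424% of all FPKM (fragments per kilobase of transcript, scaled to the mapped fragments) in BME day 5, 0.458% to 0.469% in BME day 1 and 0.675% to 0.680% on BME + COL. RNA came from whole cultures, so fewer cells of a kind and less RNA per cell cannot be told apart.

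**Figure D1:**
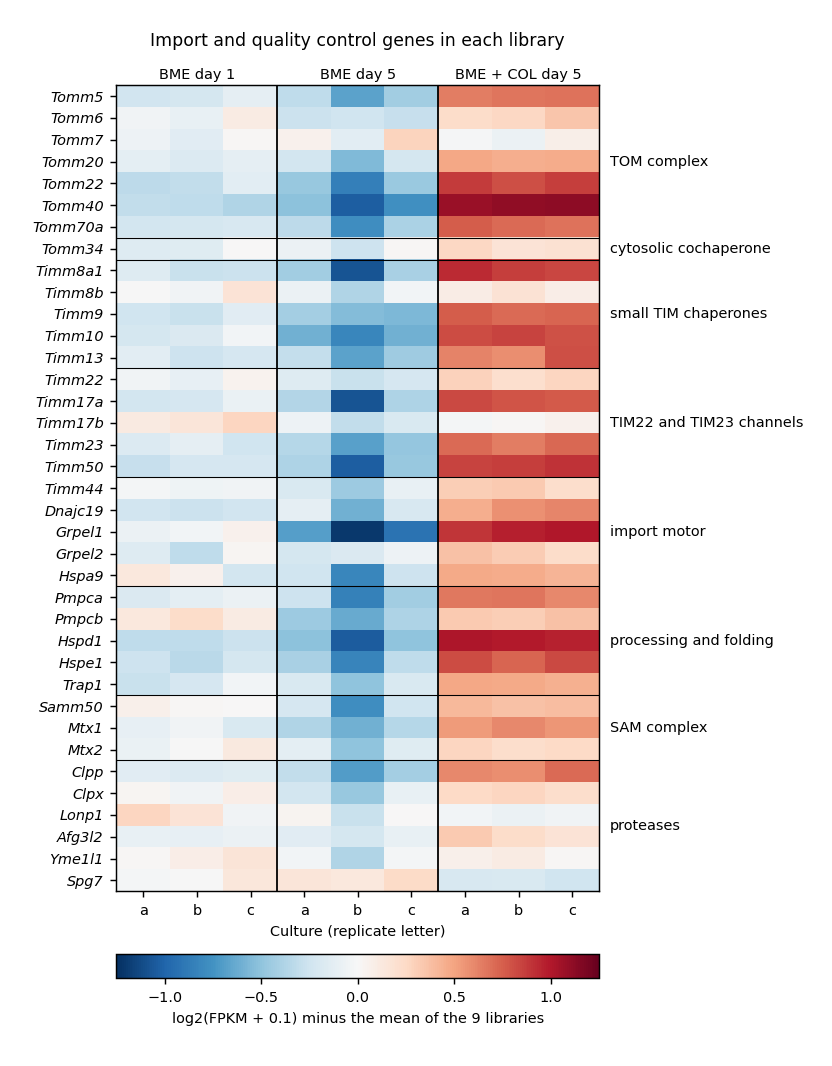
Heat map of log2(FPKM + 0.1) minus the mean of the 9 libraries, with 1 row for each of the 37 genes, grouped by role, and 1 column for each library (BME day 1, BME day 5 and BME + COL day 5, replicates a to c). Red is above and blue below the mean of the gene; the BME + COL libraries are red for most genes, BME day 5 replicate b is the deepest blue, and Spg7 in the bottom row runs the other way.

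Without BME day 5 replicate b the median of the day 5 comparison was -0.71, and 32 genes were lower; without replicate a they were -0.94 and 33. The FPKM of a library did not sum to a fixed value, so rescaling each library to the same sum (TPM) moved the median change of all genes from -0.18 to 0.16 and that of the 37 genes to -0.50. As TPM, 26 genes were lower and 4 higher in BME day 5 than on BME + COL, with 28 and 4 after quantile normalization and 25 and 5 without genes shorter than 300 bases. The shares of all tested genes given in this report belong to the reported fit, and none was taken under another setting. The median change of all genes was -0.04 after quantile normalization and 0.18 without genes shorter than 300 bases, against -0.46 and -0.48 for the 37 genes. Of the 33 genes called lower, 24 were called so in all 21 alternative settings.

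The start sites of Hspd1 and Hspe1, which encode the chaperonin HSP60 and its lid HSP10, face away from each other on chromosome 1, with 215 bases between the first bases of both transcripts in the mm9 annotation of the files. That stretch, which lies outside both transcripts of that annotation, is shown because the most abundant pair of the 37 genes flanks it. RefSeq also holds an Hspd1 promoter window beyond the start of Hspe1 (GRCm38.p6, chr1:55088194-55088493, minus strand). For an Hspd1 transcript from that start, the stretch would lie within the gene. The stretch is printed on the plus strand of mm9, chr1:55144777-55144991, with Hspd1 beyond its left end and Hspe1 beyond its right end. Capitals mark a run of overlapping heat shock element letters, with TTCNNGAA from bases 127 and 137 and GAANNTTC from base 132, both of which read alike on both strands. The 250 bases upstream of the start of Grpel1 (GRCm38.p6, chr5:36464935-36465184, plus strand), the gene with the lowest log2 change, and of Spg7 (GRCm38.p6, chr8:123065258-123065507, plus strand), the gene called in the other direction, are set beside it. In the Grpel1 sequence capitals mark, from left to right, the ETS core (CCGGAAG on the minus strand), a CCAAT box on the minus strand and the NRF1 core (GCATGCGC on the minus strand). In the Spg7 sequence none of the letters searched was found. The promoter windows of Tomm5, Trap1 and Timm22, which were called lower in BME day 5 than on BME + COL, held none of them either.
Hspd1-Hspe1 stretch: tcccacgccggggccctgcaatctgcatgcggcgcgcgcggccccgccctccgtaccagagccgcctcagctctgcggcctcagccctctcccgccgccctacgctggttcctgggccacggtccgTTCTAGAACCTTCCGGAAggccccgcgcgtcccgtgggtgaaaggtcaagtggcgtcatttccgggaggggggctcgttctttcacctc
Grpel1 upstream: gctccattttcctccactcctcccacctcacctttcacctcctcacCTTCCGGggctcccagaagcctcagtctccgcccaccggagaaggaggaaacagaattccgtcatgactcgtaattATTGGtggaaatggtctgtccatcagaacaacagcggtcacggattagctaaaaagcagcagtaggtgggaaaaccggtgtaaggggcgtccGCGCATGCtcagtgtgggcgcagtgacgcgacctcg
Spg7 upstream: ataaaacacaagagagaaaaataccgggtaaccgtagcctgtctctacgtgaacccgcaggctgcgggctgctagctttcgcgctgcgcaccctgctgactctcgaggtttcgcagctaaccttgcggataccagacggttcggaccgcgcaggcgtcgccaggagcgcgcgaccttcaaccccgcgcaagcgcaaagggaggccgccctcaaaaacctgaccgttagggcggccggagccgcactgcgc

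Promoter windows of 300 bases around the start, from RefSeq on GRCm38.p6, were matched for 33 of the 37 genes (36 windows), and Tomm7, Grpel2, Hspa9 and Afg3l2 had no entry. The letters were searched on both strands. CCGGAAG, the core bound by ETS factors such as GABP, stood in windows of 15 genes, or 44.4% of the windows against 8.86% of the 32851 promoters of the table. TTCNNGAA stood in windows of 8 genes (22.2% against 8.52%), CACGTG, the E-box, in 6 (16.7% against 7.15%), GCATGCGC in 3 (8.33% against 2.71%) and GAANNTTC in 3 (8.33% against 7.86%), while CCAAT stood in 12 (33.3% against 37.4%). A window of Hspd1 and that of Hspe1 cover nearly the same bases, so the same heat shock and ETS letters were counted for both genes. Both windows of Tomm34 also overlap and share a CCGGAAG site. CCGGAAG and TTCNNGAA can share bases, as they do in the Hspd1-Hspe1 stretch, and a match of letters is a description and shows no binding.

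TOM receptors and channel were lower in 6 of 7 genes in BME day 5 against BME + COL, with a median log2 change of -1.14. Tomm40 (mm9 chr7:20286662-20300778, minus strand) encodes the channel through which proteins cross the outer membrane. Its FPKM was 32.9, 32.6 and 31.4 in BME day 1, 28.6, 19.9 and 23.9 in BME day 5 and 86.5, 88.0 and 88.7 on BME + COL (replicates a, b and c in this order throughout). The BME day 5 libraries lay below all others, the BME + COL libraries far above, and no group overlapped another. The log2 change was -1.87 (SE 0.12, limma adjusted p = 1.07e-06), a level 3.66-fold lower. Tomm22 (chr15:79501298-79503292, plus strand), the central receptor, read 62.6, 63.4 and 71.6 FPKM in BME day 1, 56.5, 43.3 and 56.8 in BME day 5 and 144, 137 and 143 on BME + COL. The groups were ordered as for Tomm40, with a log2 change of -1.44 (SE 0.11, adjusted p = 4.19e-06).

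The other receptors, Tomm70a and Tomm20, had log2 changes of -1.21 and -0.80, and of the small subunits Tomm5 and Tomm6 had -1.14 and -0.55. Tomm6 was not called as TPM, at -0.21, after quantile normalization or without genes shorter than 300 bases. Tomm7, the small subunit linked to the disassembly of the complex, was not called, with a log2 change of 0.07 (95% interval -0.17 to 0.31) and means of 36.3 ± 1.98 (SD, n = 3), 40.0 ± 5.76 and 37.9 ± 1.91 FPKM in BME day 1, BME day 5 and BME + COL. Tomm34, a cytosolic cochaperone of HSP70 and HSP90 named for the complex, was lower by 0.31 on the log2 scale (adjusted p = 8.01e-03). That value was 0.03 as TPM.

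All 5 small TIM chaperones of the intermembrane space were lower against BME + COL, with a median log2 change of -1.24. Timm8a1 (chrX:131071797-131076168, minus strand), the mouse gene of the deafness-dystonia peptide, was at 33.5, 30.7 and 30.9 FPKM in BME day 1, at 27.6, 17.6 and 28.1 in BME day 5 and at 71.2, 67.9 and 66.8 on BME + COL. The log2 change was -1.52 (SE 0.16, adjusted p = 2.28e-05). Timm10 (chr2:84667178-84670370, plus strand), which forms the main chaperone ring with Timm9, had 15.4, 15.7 and 17.4 FPKM, then 11.8, 10.1 and 11.7, and 31.4, 32.3 and 31.1. In both genes the BME + COL libraries stood above all BME libraries, and those of BME day 5 below those of BME day 1. The log2 change of Timm10 was -1.49 (SE 0.08, adjusted p = 5.85e-07), that of Timm9 -1.24 and that of Timm13, the partner of Timm8a1, -1.14.

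Timm8b (chr9:50412006-50413425, plus strand), the paralog of Timm8a1, moved less. Its FPKM was 56.0, 54.4 and 63.3 in BME day 1, 53.2, 43.1 and 54.8 in BME day 5 and 59.7, 63.6 and 59.2 on BME + COL. The BME day 5 libraries overlapped those of BME day 1 and lay below those of BME + COL. Its log2 change of -0.28 (SE 0.11, adjusted p = 0.0367) was called lower in 12 of 21 alternative settings, and was 0.07 as TPM. After quantile normalization Timm8b was called higher, at 0.14 (limma adjusted p = 0.0471). Timm8b overlaps a transcript of AU019823 on the opposite strand by 81 bases.

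The 5 genes of the TIM22 and TIM23 channels were lower in BME day 5 than on BME + COL, with a median log2 change of -1.20. Timm50 (chr7:29090845-29097065, minus strand) encodes the receptor that passes proteins from TOM to TIM23. It read 23.05, 24.4 and 24.4 FPKM in BME day 1, 21.5, 13.7 and 20.3 in BME day 5 and 50.7, 51.5 and 52.7 on BME + COL, a log2 change of -1.50 (SE 0.15, adjusted p = 1.42e-05). No group overlapped another, and replicate b was the lowest of BME day 5. Timm23, the channel itself, had a log2 change of -1.20, and Timm22, the channel for carrier proteins, -0.47. Timm22 was not called as TPM, at -0.13, or without genes shorter than 300 bases.

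Timm17a and Timm17b are alternative subunits of the TIM23 channel. Timm17a (chr1:137198112-137210314, minus strand) was at 54.3, 55.1 and 60.1 FPKM in BME day 1, 49.5, 30.1 and 48.9 in BME day 5 and 113, 110 and 108 on BME + COL, with a log2 change of -1.40 (SE 0.17, adjusted p = 5.62e-05). Its groups did not overlap. Timm17b (chrX:7476524-7484778, plus strand) was at 12.3, 12.7 and 13.7, then 10.9, 9.20 and 10.0, and 11.2, 11.5 and 11.8 FPKM. Its highest libraries were those of BME day 1. The log2 change of Timm17b between the day 5 groups was -0.20 (SE 0.08, adjusted p = 0.0456), called lower in only 5 of 21 alternative settings. It was 0.14 as TPM, and without genes shorter than 300 bases it was called higher, at 0.17 (limma adjusted p = 0.0365).

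All 5 genes of the import motor were lower against BME + COL, with a median log2 change of -0.85. Grpel1 (chr5:36807834-36816726, plus strand), the nucleotide exchange factor of mitochondrial HSP70, had the lowest log2 change of the 37 genes. It read 34.4, 35.3 and 37.4 FPKM in BME day 1, 22.3, 15.6 and 19.0 in BME day 5 and 67.2, 70.6 and 72.2 on BME + COL. The 3 groups were widely separated, with a log2 change of -1.89 (SE 0.12, adjusted p = 1.11e-06), or a 3.72-fold lower level, against BME + COL. It overlaps Tada2b on the opposite strand by 408 bases. Grpel2 (chr18:61872078-61885985, minus strand), the second exchange factor, read 4.31, 3.87 and 4.91 FPKM in BME day 1, 4.14, 4.27 and 4.63 in BME day 5 and 6.25, 6.06 and 5.69 on BME + COL. Both BME groups overlapped, and the log2 change against BME + COL was -0.46 (SE 0.10, adjusted p = 1.73e-03), with -0.12 as TPM.

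Hspa9 (chr18:35097069-35114005, minus strand), the mitochondrial HSP70, was at 202, 190 and 156 FPKM in BME day 1, 155, 104 and 153 in BME day 5 and 255, 254 and 247 on BME + COL. All BME + COL libraries were above all BME libraries, and the log2 change was -0.89 (SE 0.16, adjusted p = 6.09e-04). Timm44, which tethers HSP70 to the channel, had a log2 change of -0.53 and Dnajc19, a J protein of the motor, -0.85. The span of Dnajc19 shares 11587 bases with Fxr1 on the opposite strand, which was at 74.6 FPKM on average, and the strand setting of the counting is not given in the sources used here.

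The genes of presequence removal and folding were lower in 5 of 5 cases, with a median log2 change of -1.15. Hspd1 (chr1:55134678-55144776, minus strand) read 184, 183 and 190 FPKM in BME day 1, 160, 111 and 162 in BME day 5 and 462, 455 and 447 on BME + COL. Hspe1 (chr1:55144992-55148161, plus strand), on the other side of the stretch printed above, read 201, 189 and 206, then 181, 135 and 192, and 422, 398 and 424 FPKM. In both genes the BME + COL libraries were above all BME libraries, and for Hspe1 the BME groups overlapped. The log2 changes were -1.67 for Hspd1 (SE 0.14, adjusted p = 4.78e-06) and -1.30 for Hspe1 (SE 0.13, adjusted p = 1.43e-05). Pmpca and Pmpcb, the subunits of the processing peptidase, had log2 changes of -1.15 and -0.82, and Trap1, the mitochondrial HSP90, -0.76. Pmpca shares 873 bases with Inpp5e on the opposite strand.

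**Figure D2:**
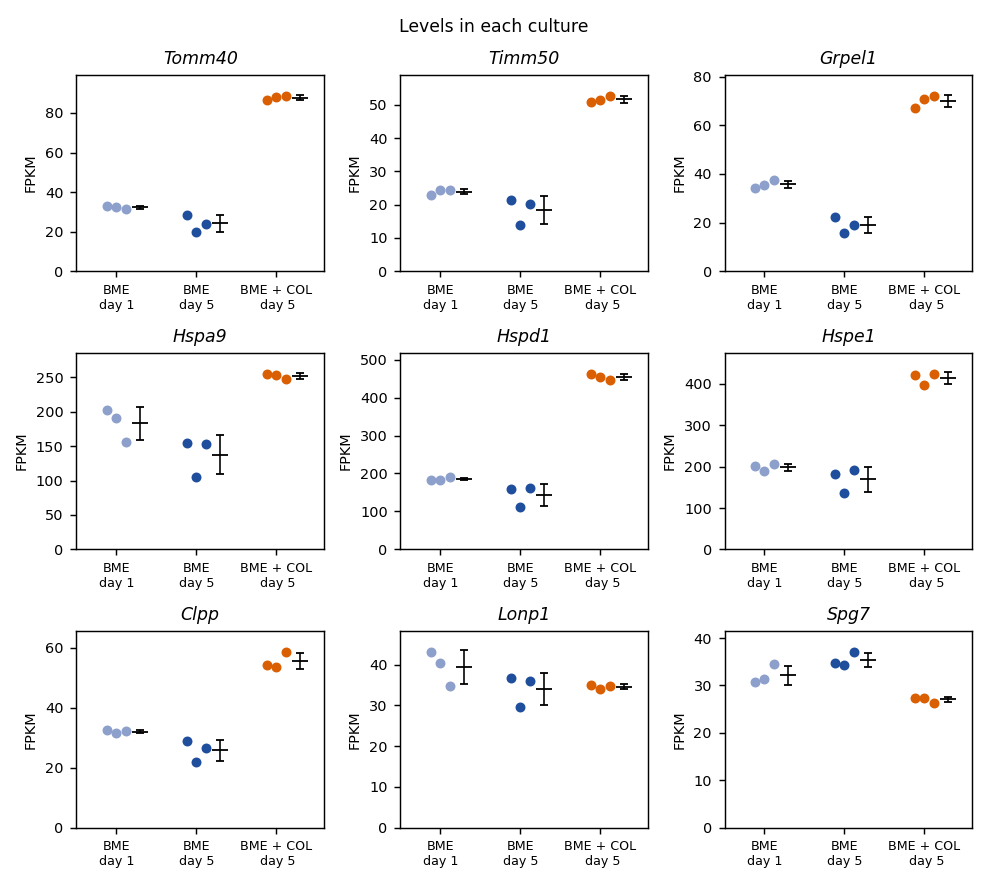
FPKM of 9 of the genes in the cultures of BME day 1, BME day 5 and BME + COL day 5; points are replicates a, b and c from left to right, and the bar beside them is the mean with its SD (n = 3). Tomm40, Timm50, Grpel1, Hspa9, Hspd1, Hspe1 and Clpp are highest on BME + COL, Lonp1 overlaps between the day 5 groups, and Spg7 is lowest on BME + COL at 26.4 to 27.5 FPKM.

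All 3 SAM genes were lower in BME day 5 against BME + COL. Mtx1 (chr3:89013003-89018257, minus strand), metaxin 1, a subunit on the cytosolic side, was at 17.9, 18.6 and 16.8 FPKM in BME day 1, 14.8, 12.6 and 15.0 in BME day 5 and 27.8, 29.1 and 28.2 on BME + COL, with a log2 change of -1.01 (SE 0.08, adjusted p = 5.23e-06). Samm50 (chr15:84022663-84044733, plus strand), the barrel at the core of the complex, read 50.9, 49.0 and 48.8, then 42.0, 28.3 and 41.0, and 64.7, 62.9 and 63.4 FPKM, with a log2 change of -0.80 (SE 0.14, adjusted p = 4.83e-04). Neither gene overlapped between any of the groups. Mtx2 (chr2:74663869-74714805, plus strand), the partner of metaxin 1, read 30.2, 31.9 and 34.7, then 29.4, 22.5 and 28.7, and 38.3, 37.2 and 37.8 FPKM, a smaller log2 change of -0.50 (SE 0.11, adjusted p = 1.96e-03). Mtx2 was not called after quantile normalization or without genes shorter than 300 bases.

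The proteases were the only role group with calls in both directions, with 3 of 6 lower and 1 higher, where 45.3% of all tested genes were lower and 30.3% higher. Their median log2 change was -0.30, against -0.18 for all tested genes. Clpp (chr17:57129687-57135794, plus strand), the peptidase of the matrix ClpXP protease, was at 32.4, 31.6 and 32.1 FPKM in BME day 1, 28.8, 21.9 and 26.5 in BME day 5 and 54.2, 53.5 and 58.5 on BME + COL. Its log2 change was -1.11 (SE 0.10, adjusted p = 9.51e-06), without overlap of the groups. Clpx (chr9:65142102-65178465, plus strand), the unfoldase of the same enzyme, was at 14.2, 13.5 and 14.7, then 11.8, 10.0 and 13.1, and 16.6, 16.8 and 16.2 FPKM, with a log2 change of -0.51 (SE 0.10, adjusted p = 8.96e-04). The files split Clpx into a transcript of 2851 bases and one of 2809 bases. The shorter took an estimated 19.7% to 28.3% of the gene's FPKM in BME day 1, 14.1% to 16.2% in BME day 5 and 24.7% to 37.1% on BME + COL, and the longer was at 8.41 to 11.3 FPKM in BME day 5 and 10.2 to 12.7 on BME + COL, so those libraries overlapped. With the most abundant transcript only, Clpx was not called between the day 5 groups.

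Spg7 (chr8:125589408-125621651, plus strand), which encodes paraplegin, a subunit of the inner membrane m-AAA protease, was the gene called higher in BME day 5 than on BME + COL. In BME day 5 against BME day 1 it was not called, at 0.14 (limma adjusted p = 0.167), but was called higher as TPM, at 0.26. Its FPKM was 30.8, 31.3 and 34.5 in BME day 1, 34.7, 34.4 and 37.1 in BME day 5 and 27.3, 27.5 and 26.4 on BME + COL, and the BME + COL libraries were below all others. The log2 change between the day 5 groups was 0.39 (SE 0.07, adjusted p = 9.55e-04), and it was called in the same direction in all 21 alternative settings. Its partner in the protease, Afg3l2, went the other way, with a log2 change of -0.39 (adjusted p = 6.33e-04) and -0.05 as TPM.

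Lonp1, the soluble Lon protease of the matrix, was not called, with means of 39.4 ± 4.20 (SD, n = 3), 34.0 ± 3.96 and 34.6 ± 0.598 FPKM in BME day 1, BME day 5 and BME + COL and a log2 change of -0.03 between the day 5 groups (95% interval -0.27 to 0.21). Yme1l1, the i-AAA protease that faces the intermembrane space, was not called either, at -0.20 (95% interval -0.43 to 0.02). As TPM both were called higher in BME day 5, at 0.31 and 0.14, as was Tomm7, at 0.42, so the calls of these genes depended on the scaling of the libraries.

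**Figure D3:**
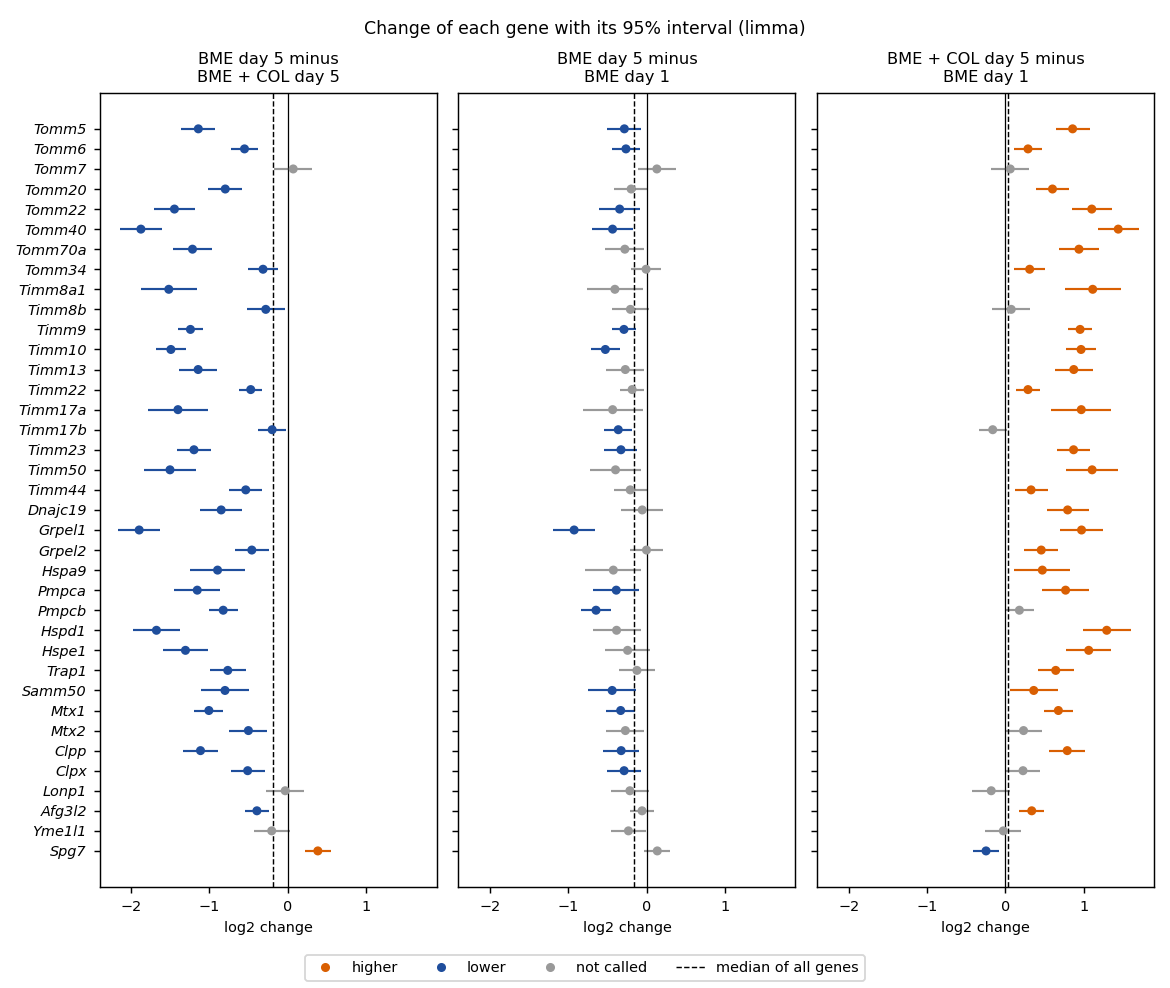
Log2 change of each of the 37 genes with its 95% interval from limma in the 3 comparisons; orange points were called higher, blue lower and grey not called, and the dashed line is the median of all tested genes. Most points lie left of that line in the day 5 comparison, close to it for BME day 5 against day 1 and right of it for BME + COL against BME day 1.

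The 6 pairs of related or partner genes were compared by the ratio of their FPKM within a library, which no scaling of the library can alter. Timm17a was 4.37 ± 0.0227 times Timm17b in BME day 1, 4.23 ± 0.847 times in BME day 5 and 9.59 ± 0.444 times on BME + COL (SD, n = 3). Grpel1 was 8.24 ± 0.796, 4.38 ± 0.906 and 11.7 ± 0.957 times Grpel2, with no overlap between any of the 3 groups. Timm8a1 was 0.550 ± 0.0561, 0.480 ± 0.0623 and 1.13 ± 0.0627 times Timm8b, so that the order of both genes turned over on BME + COL.

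The ratio of Clpp to Clpx was 2.26 ± 0.0799 in BME day 1, 2.21 ± 0.205 in BME day 5 and 3.35 ± 0.224 on BME + COL, and that of Mtx1 to Mtx2 0.553 ± 0.0595, 0.529 ± 0.0295 and 0.751 ± 0.0292. Hspd1 was, for the same groups, at 0.936 ± 0.0281, 0.849 ± 0.0324 and 1.10 ± 0.0455 times Hspe1. In each of the 6 pairs all BME day 5 libraries had a lower ratio than all BME + COL libraries. The two-sided exact permutation test gave p = 0.1 for each, the smallest that 3 against 3 allows, and 0.129 after Benjamini-Hochberg adjustment over the 18 pair tests. The differences of the log2 ratio were -1.43 for Grpel1/Grpel2, -1.24 for Timm8a1/Timm8b, -1.20 for Timm17a/Timm17b, -0.60 for Clpp/Clpx, -0.51 for Mtx1/Mtx2 and -0.37 for Hspd1/Hspe1.

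**Figure D4:**
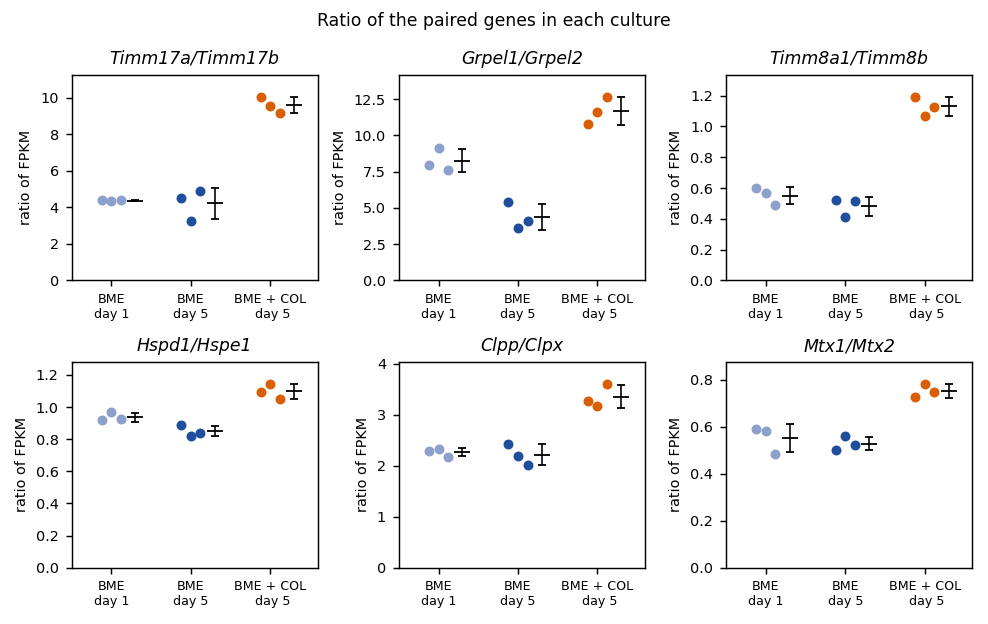
Ratio of the FPKM of both genes of a pair in the cultures of BME day 1, BME day 5 and BME + COL day 5; points are replicates a, b and c from left to right, and the bar beside them is the mean with its SD (n = 3). All BME + COL points lie above all BME day 5 points in each of the 6 panels.

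Between day 1 and day 5 on BME, 15 of the 37 genes were lower at day 5 and 22 were not called, where 22.2% of all tested genes were lower and 9.09% higher. None was called higher by limma, and none was higher at an unadjusted p under 0.05, but 2 were called higher as TPM. The median log2 change was -0.28, against -0.15 for all tested genes. It was -0.16 as TPM, -0.14 after median-ratio scaling, -0.12 after quantile normalization, -0.13 without genes shorter than 300 bases and -0.18 without BME day 5 replicate b. The lowest were Grpel1 at -0.92 (SE 0.12, adjusted p = 1.22e-03), Pmpcb, the catalytic subunit of the peptidase, at -0.65 (SE 0.08, adjusted p = 1.22e-03) and Timm10 at -0.53 (SE 0.08, adjusted p = 2.93e-03), and only these 3 were called in all 21 alternative settings. Pmpcb was at 48.1, 51.7 and 47.3 FPKM at day 1 and 32.1, 28.4 and 33.7 at day 5.

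The count of 15 moved with the libraries that were fitted, and some calls lay close to the threshold (Tomm5 and Pmpca at limma adjusted p = 0.0499). It was 4, 6 and 8 without BME day 1 replicate a, b or c, 7, 8 and 9 without BME + COL day 5 replicate a, b or c, 22, 20 and 10 without BME day 5 replicate a, b or c, and 3 where only the 6 libraries of this comparison were fitted. The BME + COL libraries are not part of this comparison, and the median log2 change stayed at -0.28 without any of them. By role, the called genes were 4 of 7 in TOM, 2 of 5 small TIM chaperones, 2 of 5 in the channels (Timm17b and Timm23), 1 of 5 in the motor (Grpel1), 2 of 5 in processing and folding (Pmpca and Pmpcb), 2 of 3 in SAM (Samm50 and Mtx1) and 2 of 6 proteases (Clpp and Clpx). Hspd1 and Hspe1 had log2 changes of -0.38 (adjusted p = 0.0569) and -0.24 (adjusted p = 0.159), and Hspa9 -0.42 (adjusted p = 0.0657).

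Against BME day 1, cells on BME + COL at day 5 had higher levels of most of the 37 genes. Of these, 28 were higher, 1 (Spg7) was lower and 8 were not called, where 34.2% of all tested genes were higher and 31.8% lower. The median log2 change was 0.64, against 0.03 for all tested genes. Tomm40 at 1.44 (SE 0.12, adjusted p = 8.70e-06), Hspd1 at 1.29 (SE 0.14, adjusted p = 3.86e-05), Timm8a1 and Timm50 at 1.11, Tomm22 at 1.10 and Hspe1 at 1.06 were the highest. Spg7 fell by 0.25 on the log2 scale (SE 0.07, adjusted p = 0.0138). Those not called were Tomm7, Timm8b, Timm17b, Pmpcb, Mtx2, Clpx, Lonp1 and Yme1l1.

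The 3 comparisons share libraries, so their values stand side by side and are not independent. By their means, 32 of 37 genes ran from BME day 5 over BME day 1 up to BME + COL. Timm17b, Lonp1 and Yme1l1 were highest in BME day 1, and Tomm7 and Spg7 in BME day 5. For Grpel1 the step from BME day 1 down to BME day 5 (-0.92) was about as long as the step up to BME + COL (0.97), whereas for Hspd1 they were -0.38 and 1.29.

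Marker genes of the line were checked. The epithelial keratins Krt8 and Krt18 were at 395 to 1324 and 362 to 1088 FPKM in these carcinoma cells. Cdh1 was at 31.5 to 38.0 FPKM in BME day 1, 15.9 to 17.3 in BME day 5 and 30.1 to 32.0 on BME + COL. For the same groups Epcam was at 0.866 to 1.59, 0.531 to 0.844 and 0.802 to 0.845 FPKM. Krt7 was at 4.42 to 8.35, 1.23 to 4.45 and 10.4 to 10.9, and Krt19 stayed at or below 0.0632. The summed epithelial list, nearly all of it Krt8 and Krt18, was at 1440 to 1603 FPKM in BME day 1, 776 to 1153 in BME day 5 and 2348 to 2455 on BME + COL. The summed fibroblast list moved the other way, at 20.1 to 26.8, 43.5 to 53.2 and 4.38 to 4.54 FPKM, with Pdgfra and Postn at the head in BME day 5, while Lum was listed at 0 in every library and Dcn and Col1a2 stayed at or below 0.111. Endothelial markers summed to at most 0.0909 FPKM. Haematopoietic markers summed to 4.84 to 9.93 FPKM, nearly all of it from Cd14 (2.23 to 6.43) and Cd68. Cd68 was at 2.59 to 3.44 in the BME libraries and at 0.942 to 1.14 on BME + COL. Emr1 was listed at 0 in every library, and Ptprc stayed at or below 0.0763. All 16 cell cycle genes listed were lower in BME day 5 than on BME + COL, with a median log2 change of -2.35, led by Cdc20 (-3.13) and Aurka (-2.99). The part of these differences in the levels of the import genes was not tested.

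Other genes of import and quality control were lower in 22 of 37 cases and higher in 5 in BME day 5 against BME + COL, with a median log2 change of -0.54. Chchd4, the oxidoreductase that traps proteins in the intermembrane space, had -2.31 (adjusted p = 2.69e-07), from 30.4 ± 1.02 FPKM on BME + COL to 6.11 ± 1.07 in BME day 5 (SD, n = 3), and Stoml2, a scaffold of inner membrane proteases, -1.62. Metap1d, the mitochondrial methionine aminopeptidase, and Lonp2, the Lon protease of peroxisomes, were higher, at 0.78 and 0.63. As TPM the counts were 18 lower and 11 higher. Against BME day 1 the list had 10 lower and 1 higher in BME day 5, and 18 higher and 6 lower on BME + COL, while as TPM these were 12 lower and 4 higher, and 12 higher and 10 lower.

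Regulators of mitochondrial biogenesis were lower in 9 of 12 tested genes against BME + COL, with a median log2 change of -0.68. As TPM 7 were lower and 2 higher, with a median of -0.34. Nrf1, an activator of nuclear genes for mitochondria, had -1.27 (adjusted p = 1.20e-05) and Pprc1, a coactivator of the PGC-1 family, -1.26 (adjusted p = 5.09e-06). Ppargc1a and Ppargc1b, the other coactivators of that family, were not tested, at no more than 0.103 and 0.572 FPKM. Regulators of the mitochondrial stress response went both ways, with 6 of 11 higher and 3 lower. Cebpb and Trib3 were higher, at 1.50 and 1.38, and Hsf1, the activator of heat shock genes, and Atf4 lower, at -0.97 and -0.39, with 7 higher and 1 lower as TPM. Against BME day 1, 0 of these 11 were higher and 4 lower in BME day 5, and 1 was higher and 6 lower on BME + COL. The medians were -0.39 and -0.52. As TPM the counts were 1 higher and 4 lower in BME day 5, and 0 and 8 on BME + COL. Of 9 genes of outer membrane porins and mitophagy, 3 were lower and 3 higher (3 and 5 as TPM). Vdac1 and Vdac3, the porins that SAM inserts, were lower at -0.97 and -0.85, and Bnip3 and Pink1, genes of mitochondrial removal, higher at 2.98 and 2.00.

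Cytosolic chaperones were lower in 18 of 19 tested genes, with a median log2 change of -1.27, and the lowest were Hsp90aa1 (-1.63) and the chaperonin subunit Cct6a (-1.60). Mitochondrial ribosomal proteins, which are themselves imported, were lower in 73 of 76 genes, with the same median of -0.85 as the import genes, led by Mrpl12 (-1.53) and Mrps27 (-1.51). Oxidative phosphorylation subunits, most of which are imported into the inner membrane, were listed by symbol, and whether each gene encodes a subunit was not checked. Of 75 genes, 43 were lower and 6 higher, with a median of -0.30. The list was led by Atp5g1 (-1.09) and Atp5b (-1.06) below and Atp5s (0.93) and Cox7a2l (0.67) above. As TPM that list held 26 lower and 29 higher genes, with a median of 0.05, so the sign of its median depended on scaling. All tested genes had a median of -0.18 in the reported fit and 0.16 as TPM, so the median of the list lay below theirs both times. Against BME day 1, the ribosomal proteins were lower in 22 genes in BME day 5 and higher in 61 on BME + COL, and the cytosolic chaperones lower in 6 (14 as TPM) and higher in 16 (15 as TPM).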

How the data were processed

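RNA of D2.0R cells was sequenced in 9 libraries (3 groups of 3 biological replicates). The authors extracted total RNA (RNeasy), built libraries with the NEBNext Ultra Directional kit for Illumina sequencing. Named in the processing notes of the submitters were TopHat2 2.0.8, Trimmomatic 0.30, CASAVA 1.8.4 and Partek without a version, with mm9 and NCBIM37 as builds. The deposited values are FPKM of 30563 transcripts, written by Cufflinks for the authors, whose version and strand setting are not given in the sources used here. The values are not counts, so no count model was used, and the Partek tests of the authors on alignments were not repeated.

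FPKM were summed by gene symbol, and genes whose mean over all 9 libraries reached 1 FPKM were tested. log2(FPKM + 0.1) was fitted by limma 3.58.1 (R 4.3.3) with 3 group means, an intensity trend and 6 residual degrees of freedom; p-values took the Benjamini-Hochberg adjustment over all genes of a comparison, and "called" means an adjusted p under 0.05. All tests were two-sided. Fold changes are on the scale with the pseudocount. The fit was tested on simulated data. The 37 genes and the lists were chosen with earlier results of these data known, and so were the tests. Genes given in every library are the 2 with the largest change between the day 5 groups in each role group, those called against most of their group, and the 6 pairs; of other lists, up to 2 called genes each way. For each of the 37 genes, the deposited position overlapped the NCBIM37 gene of the same symbol. Sequences came from the NCBIM37 genome and RefSeq promoters. Pair ratios were tested by exact permutation.

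Alternatives were pseudocounts of 1 and 0.01, no filter, a higher filter at a mean of 5 FPKM, median-ratio scaling, TPM, quantile normalization, leaving out genes under 300 bases, the most abundant transcript only, the 6 libraries compared only, no trend, the replicate letter as a block, and each library left out.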

Additional observations from a re-analysis of the deposited data

How the results depend on the processing

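Of the 37 genes, the counts called lower between the day 5 groups (33; 25 to 33 in the alternatives) and higher on BME + COL than on BME day 1 (28; 20 to 31) stayed within 1.5 times of the reported value in all 21 alternatives. The count higher on BME at day 5 than on BME + COL (1) was 4 as TPM, 2 after median-ratio scaling, 4 after quantile normalization and 5 without genes under 300 bases; the median of -0.85 was -0.50, -0.67, -0.46 and -0.48 under the same settings. Of BME day 5 against day 1, 2 genes were higher under each of these settings, and the count lower (15) was 9 without a filter, 7 without genes under 300 bases, 3 with only the 6 libraries compared and 4 to 22 with 1 library left out. Of BME + COL against BME day 1, the count lower (1) was 4 as TPM, 2 after median-ratio scaling, 5 after quantile normalization, 4 without genes under 300 bases, 2 with only the 6 libraries compared and 1 to 3 with 1 library left out (3 without BME day 5 replicate b), and the median of 0.64 was 0.42, 0.60, 0.52 and 0.43 under the scaling and length settings and 0.61 to 0.65 with 1 library left out. Between the day 5 groups, the log2 change turned sign for Tomm34 (0.027 as TPM, 0.050 without short genes), Timm8b (0.066, 0.089 and, after quantile normalization, 0.14), Timm17b (0.14 and 0.17), Lonp1 (0.31, 0.34 and, after quantile normalization, 0.34) and Yme1l1 (0.14 and 0.16); for BME + COL against day 1 it did so for Timm8b after quantile normalization (-0.18). The cause was not tested. No source says that a replicate letter marks a shared day, and the deviations of same-lettered libraries correlated at -0.23 to 0.10, with 0 of 9 libraries closest to their own letter. With a replicate block, 32 genes were lower in the day 5 comparison (Timm17b was lost), 12 on BME at day 5 against day 1, and 28 were higher on BME + COL. Grpel2 was not tested with a mean of at least 5 FPKM. Low levels are limited by depth: Grpel2, at 3.87 to 6.25 FPKM, was the least abundant of the 37 genes.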
